A study of Mus musculus with 2 samples.

Results

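The conjugation enzymes of mouse liver are described here in 3 gene superfamilies: the glutathione S-transferases (GST), the UDP-glucuronosyltransferases (UGT) and the sulfotransferases (SULT). Members were taken by gene symbol: those starting with Gsta, Gstm, Gstp, Gstt, Gstk, Gsto, Gstz, Mgst, Ugt1a, Ugt2a, Ugt2b, Ugt3a, or Sult followed by a digit. Of 69 such symbols in the mouse gene table, 59 had a probe named through its RefSeq accession, against 20284 named genes on the whole array. These 59 members comprised 25 GST, 14 UGT and 20 SULT genes, read by 81 probes. The other 10 symbols, among them Ugt1a1, Ugt1a2, Ugt1a5, Ugt1a7c, Ugt1a8, Ugt1a9 and Ugt2a2, had no named probe and were not analysed here.

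The study compared the livers of C57B6J wild-type mice (WT) with those of CREBH KO mice, a null line on the C57B6J background, each either fed ad lib or fasted for 24 h. CREBH is a membrane-bound transcription factor of the endoplasmic reticulum in hepatocytes that is released by proteolysis, among other times in fasting, and is encoded by Creb3l3. Each of the 4 groups was 1 pool of liver total RNA, and the number of mice per pool, their age and their sex are not given in the labels used here. The pools were hybridised to 2 two-colour arrays, 1 per feeding state, with the WT pool in Cy3 and the KO pool in Cy5 on both arrays and no dye swap. With 1 pool per group no difference has a replicate check and none was tested. A gene was called higher or lower where it differed at least 2-fold, and the spread between mice is unknown. Dye and genotype cannot be told apart within an array, and array and feeding state cannot be told apart between the arrays.

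Conjugation enzymes attach a polar group to foreign compounds, steroids, bile pigments and reactive metabolites so that they can be carried out of the cell. GSTs couple the tripeptide glutathione to electrophiles, UGTs transfer glucuronic acid from UDP-glucuronic acid inside the endoplasmic reticulum, and SULTs transfer sulfate from the donor PAPS in the cytosol. In liver their genes are known targets of xenobiotic and stress sensors such as CAR, PXR, AHR, PPAR-alpha and NRF2, and several differ between male and female mice.

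Upstream sequences of 4 members are shown because the results turn on them: Gsta1 and Gsta2 were lower after fasting by very different amounts, while Sult1e1 and Ugt1a10 held the largest differences between genotypes. Each runs 5′ to 3′ on the strand of its gene, from 250 bases before the transcription start to 50 bases after it, and comes from RefSeq on build GRCm38.p6. Capitals mark a match to any of 3 motifs, described with the results.
Gsta1, chr9:78230419-78230718, plus strand: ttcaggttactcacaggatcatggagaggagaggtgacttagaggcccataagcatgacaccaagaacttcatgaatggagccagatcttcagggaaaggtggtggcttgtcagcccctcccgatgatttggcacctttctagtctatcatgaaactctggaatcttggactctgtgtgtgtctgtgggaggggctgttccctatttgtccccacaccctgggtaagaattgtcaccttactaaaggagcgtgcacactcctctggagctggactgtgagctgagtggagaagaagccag
Gsta2, chr9:78347096-78347395, minus strand: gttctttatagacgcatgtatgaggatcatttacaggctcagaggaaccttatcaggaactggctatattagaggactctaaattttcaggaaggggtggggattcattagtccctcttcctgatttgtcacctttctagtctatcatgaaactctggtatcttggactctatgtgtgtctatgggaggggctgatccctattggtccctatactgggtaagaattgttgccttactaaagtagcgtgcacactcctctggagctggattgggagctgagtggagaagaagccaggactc
Sult1e1, chr5:87591562-87591861, minus strand: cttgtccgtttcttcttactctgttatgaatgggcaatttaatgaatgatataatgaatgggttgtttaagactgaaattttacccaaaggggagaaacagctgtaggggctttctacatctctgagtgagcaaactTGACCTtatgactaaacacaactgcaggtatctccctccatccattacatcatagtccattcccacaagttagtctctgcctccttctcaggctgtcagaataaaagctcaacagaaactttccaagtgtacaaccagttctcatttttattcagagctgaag
Ugt1a10, chr1:88055161-88055460, plus strand: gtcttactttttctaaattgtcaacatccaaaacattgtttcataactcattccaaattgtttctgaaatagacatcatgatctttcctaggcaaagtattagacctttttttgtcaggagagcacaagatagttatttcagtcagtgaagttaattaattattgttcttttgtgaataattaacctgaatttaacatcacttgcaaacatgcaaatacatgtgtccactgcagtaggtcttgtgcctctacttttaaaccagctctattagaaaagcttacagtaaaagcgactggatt

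The arrays held 59305 gene spots each, of which 39.9% to 45.9% were well above background in a given channel, and no gene spot was saturated. All 9 hepatocyte markers were above background in every pool, with a summed signal of 19.72 to 19.88 (log2), while 4 of 7 bile duct markers and 7 of 9 pancreas, gut or kidney markers were above background in none. Summed Kupffer cell markers stood at 14.08 in the fed WT pool, 13.64 in the fed KO pool, 14.07 in the fasted WT pool and 14.13 in the fasted KO pool. All 11 male-biased liver genes were above background in every pool, as were 4 of 11 female-biased genes, Cyp2a4, Cyp3a16, Cyp17a1 and Prom1, while 5 of the 11 were in none. Xist and the Y-linked Kdm5d were above background in no pool, and the Y-linked Ddx3y, Eif2s3y and Uty in all 4. In a bulk liver extract, fewer cells of a type and less RNA per cell cannot be told apart. The targeted gene Creb3l3 read 14.00 in the fed WT pool, 13.12 in the fed KO pool, 15.03 in the fasted WT pool and 12.95 in the fasted KO pool. It was thus lower in KO in both feeding states, by 1.84-fold fed and 4.21-fold fasted, and no source used here says whether its probe lies within the deletion.

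Of the 59 members, 43 were above background in all 4 pools: 22 of 25 GST genes, 13 of 14 UGT genes and 8 of 20 SULT genes. Another 13 were above background in no pool, of which 11 were SULT genes: Sult1c1, Sult2a1, Sult2a2, Sult2a3, Sult2a4, Sult2a6, Sult2b1, Sult3a1, Sult3a2, Sult6b1 and Sult6b2. Gstt4 and Ugt2a1 were the remaining 2. Sult2a enzymes sulfate bile acids and steroids, and both Sult2a and Sult3a enzymes are known for higher levels in female than in male mouse liver. However, Sult2a7, at 7.31 to 7.87, and Sult2a8, at 13.41 to 13.81 (log2), were above background in all 4 pools. Any part of sex in the absent signals was not tested. Gsto2 was above background only in the fasted pools, Mgst2 only in the fed WT pool, and Sult4a1 in all but the fed WT pool. None of these 3 reached 2-fold, either measured or as a bound against the dimmest signal above background. Many probes of members lie in families of close relatives, and whether a probe also binds a related transcript is not known here, since no probe sequences were used. This applies to the Gsta, Gstm, Gstp and Sult2a genes, and to the Ugt1a genes, whose transcripts share their last exons. Gsta1 and Gsta2 were each read by 1 probe, so their values had no second probe to set beside them.

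**Figure D1:**
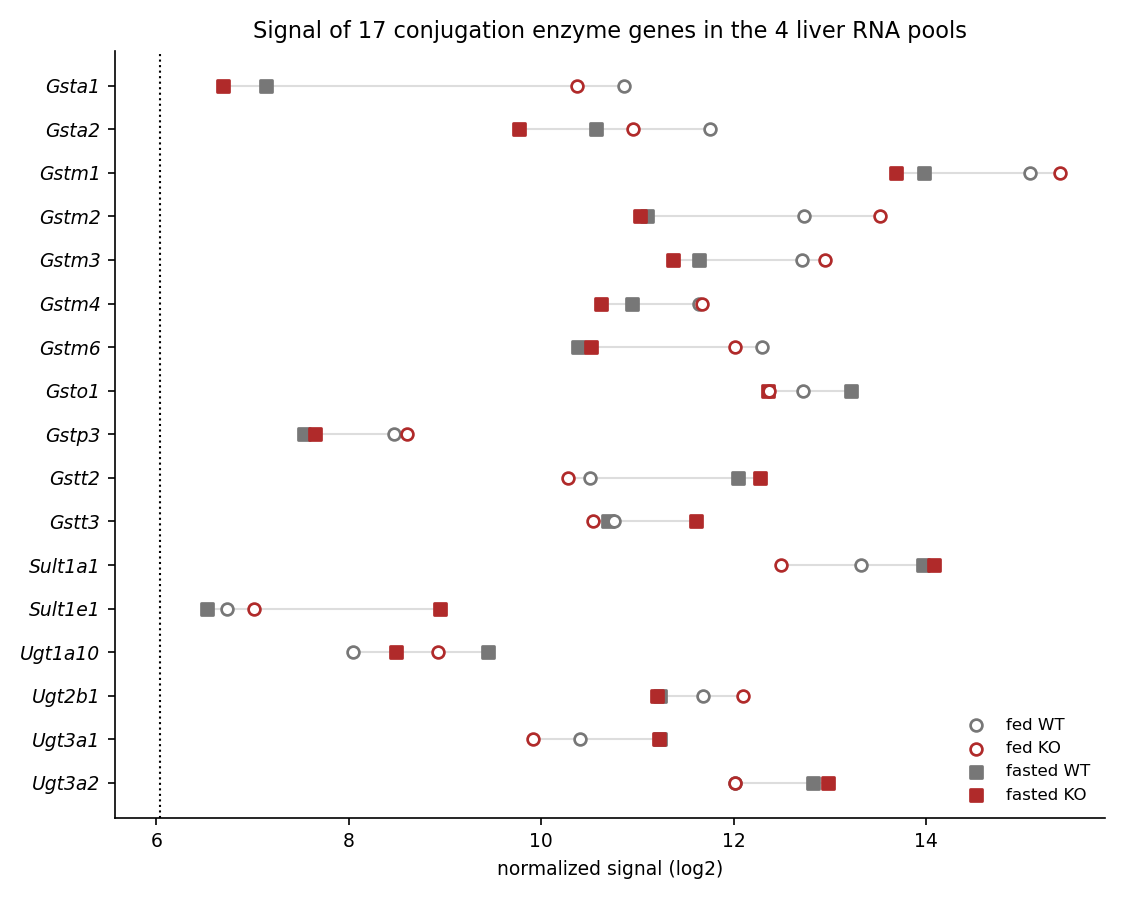
Normalized log2 signal (horizontal axis) of the 17 members described individually, with 1 point per pool: open circles fed, filled squares fasted, grey WT, red KO. The dotted line is the dimmest signal above background in any pool (6.04). Points compare pools within a gene, not genes with each other. Gsta1 separates by feeding state, from 10.86 and 10.37 fed to 7.14 and 6.69 fasted, and Sult1e1 stands apart in the fasted KO pool at 8.95.

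Alpha and mu class GST genes had lower signals in the fasted than in the fed pools of both genotypes, while Gstt2, a theta class GST, had a higher one. Among the 43 members measured in both WT pools, 2 were at least 2-fold higher and 6 at least 2-fold lower after fasting (18.6%), beside 4.28% of the 11441 genes measured. By direction, 2.36% of all measured genes were higher and 1.92% lower. In the KO pools 5 of 44 members were higher and 7 lower (27.3%), beside 4.68% of 11785 measured genes, 2.59% higher and 2.1% lower. The 6 genes lower in WT (Gsta1, Gsta2, Gstm1, Gstm2, Gstm3 and Gstm6) were all lower in KO as well, where they made up 85.7% of the 7 lower members and Gstm4 was the other. Over the 22 measured GST genes the median difference was -0.63 (log2) in WT and -0.51 in KO, against 0.01 over all measured genes in either genotype. Without normalization between the arrays the GST median was -0.06 in WT and 0.04 in KO, and under the other alternative settings it stayed below 0 in both. That setting raised the median of all genes by 0.53 in WT and 0.52 in KO, and changed the split of called members to 6 higher and 3 lower in each genotype. Centring on all gene spots instead gave 4 higher and 9 lower in KO. Endothelial markers were higher in the fasted pools, with 7 of 8 above 0 in each genotype and a summed signal of 13.15 and 13.11 fed against 13.48 and 13.55 fasted. Stellate and fibroblast markers were lower, with 6 of 7 below 0 in each genotype, although their summed signal stayed between 13.01 and 13.18. Kupffer cell markers were above 0 for 5 of 9 in WT (median 0.10) and for 9 of 9 in KO (median 0.53). The part of these 3 marker lists in the fasting values was not tested, and the summed hepatocyte markers were 19.73 and 19.80 fed against 19.72 and 19.88 fasted.

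**Figure D2:**
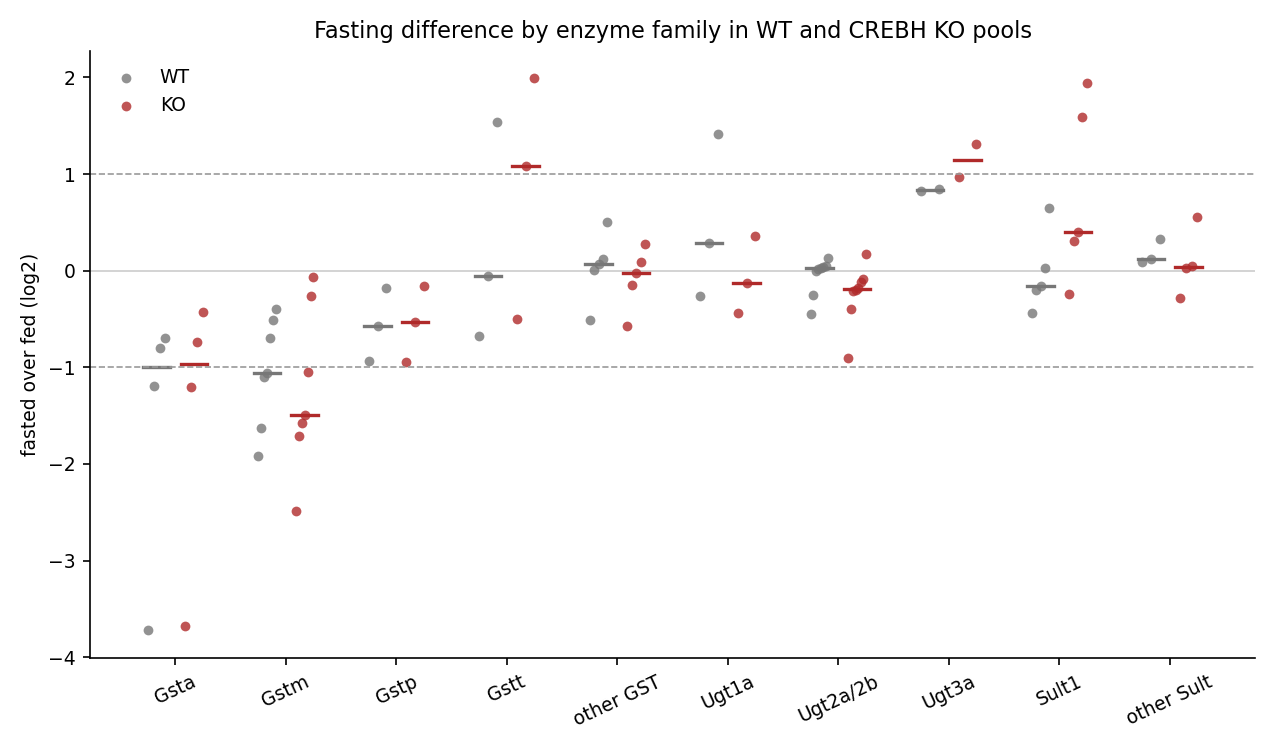
Fasted over fed difference (log2, vertical axis) of each measured member by family, grey for the WT pools and red for the KO pools. Horizontal bars are family medians and dashed lines mark 2-fold. All Gsta and Gstm points lie below 0 and the Ugt3a points lie above 0. The Ugt2a and Ugt2b points lie within 1.5-fold, except Ugt2b1 in KO at -0.90.

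Alpha class GSTs are abundant detoxifying enzymes of hepatocytes that also reduce lipid peroxides. Gsta1 read 10.86 in the fed WT pool, 10.37 in the fed KO pool, 7.14 in the fasted WT pool and 6.69 in the fasted KO pool. Both fasted pools were far below both fed pools, by 13.2-fold in WT and 12.8-fold in KO, and Gsta1 had the largest fasting difference of any member by its reported probe. With the signals as processed by the scanner software the same log2 differences were -4.62 and -5.12 in place of -3.72 and -3.68. Gsta2 read 11.76 in the fed WT pool, 10.96 in the fed KO pool, 10.57 in the fasted WT pool and 9.77 in the fasted KO pool. Here the fasting difference was 2.28-fold in WT and 2.29-fold in KO, and it fell short of 2-fold without normalization between the arrays (-0.58 and -0.59 on the log2 scale). Gsta3 was lower after fasting by 1.74-fold in WT and 1.35-fold in KO. Gsta4, which acts on lipid peroxidation aldehydes such as 4-hydroxynonenal, was lower by 1.63-fold and 1.67-fold. The Gsta4 probe was printed 10 times on each array, and its log ratio of KO over WT had a standard deviation of 0.10 (log2) over those spots on either array. That spread is technical and says nothing of the spread between mice. All 4 alpha class genes lay below 0 in both genotypes, as they did under all 8 alternatives in WT and under 7 of 8 in KO.

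Gsta1, Gsta2 and Gsta4 lie on chromosome 9 and Gsta3 on chromosome 1. The upstream windows of Gsta1 and Gsta2 shown above have the same base at 232 of 289 aligned positions (80.3%). Across these similar windows the fasting differences were -3.72 and -1.19 (log2) in WT.

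Mu class GSTs, cytosolic enzymes that conjugate many epoxides and quinones, were measured for all 7 members. Gstm2 read 12.73 in the fed WT pool, 13.52 in the fed KO pool, 11.10 in the fasted WT pool and 11.03 in the fasted KO pool. The fasted pools were nearly level and the fed KO pool was the highest, so that the fasting difference was 3.1-fold in WT and 5.61-fold in KO. Gstm6 read 12.30 in the fed WT pool, 12.01 in the fed KO pool, 10.38 in the fasted WT pool and 10.52 in the fasted KO pool. Its fasting difference was 3.79-fold in WT and 2.82-fold in KO. Gstm1 read 15.08 in the fed WT pool, 15.39 in the fed KO pool, 13.98 in the fasted WT pool and 13.69 in the fasted KO pool, which was 2.15-fold lower with fasting in WT and 3.27-fold lower in KO. Gstm1 is the major mu class enzyme of mouse liver. Gstm3 read 12.71 in the fed WT pool, 12.95 in the fed KO pool, 11.64 in the fasted WT pool and 11.37 in the fasted KO pool, 2.09-fold lower in WT and 2.99-fold lower in KO. Gstm4 read 11.64 in the fed WT pool, 11.67 in the fed KO pool, 10.94 in the fasted WT pool and 10.62 in the fasted KO pool, 1.63-fold lower in WT and 2.07-fold lower in KO. In all 5 genes both fasted pools were below both fed pools. Gstm5 and Gstm7 stayed within 1.5-fold in both genotypes, at -0.40 and -0.51 (log2) in WT and at -0.26 and -0.07 in KO. The mu class median was -1.06 in WT and -1.49 in KO, and it was below 0 under all 8 alternatives in both. Without normalization between the arrays Gstm1 in WT (-0.52), Gstm3 in both genotypes (-0.43 and -0.94), Gstm4 in KO (-0.46) and Gstm6 in KO (-0.92) were no longer 2-fold lower. Centred on the median of all gene spots, Gstm1 and Gstm3 in WT were at -0.92 and -0.89, and centred on the measured genes Gstm3 in WT was at -0.97.

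All 7 mu class genes lie next to each other on chromosome 3, in the order Gstm5, Gstm7, Gstm6, Gstm3, Gstm2, Gstm1 and Gstm4. In WT the fasting differences of the reported probes along that order were -0.40, -0.51, -1.92, -1.06, -1.63, -1.10 and -0.70 (log2). By these probes Gstm5 and Gstm7, at one end of the run, had the smallest. In KO the differences were -0.26, -0.07, -1.49, -1.58, -2.49, -1.71 and -1.05, with Gstm5 and Gstm7 again nearest to 0. A second probe of Gstm4, at the other end, was at -0.25 in WT and 0.46 in KO, so the order in WT depends on the probe.

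Different probes of the same gene did not always give the same size of fasting difference. Of 15 members with more than 1 measured probe, 4 had probes more than 0.5 apart (log2) for fasting in WT: Gstm2, Gstm3, Gstm6 and Ugt3a2. In KO there were 5: Gstm3, Gstm4, Gstm6, Ugt2b35 and Ugt3a2. The second Gstm3 probe read 12.66 in the fed WT pool, 13.13 in the fed KO pool, 8.48 in the fasted WT pool and 8.89 in the fasted KO pool. By that probe Gstm3 was 18.1-fold lower with fasting in WT and 18.9-fold lower in KO, against 2.09-fold and 2.99-fold by the reported probe, which was brighter on average. Both probes were named Gstm3 by the same RefSeq accession, and both were lower after fasting in both genotypes. The second Gstm4 probe, at -0.25 in WT and 0.46 in KO, did not show the 2-fold lower signal of the brighter one. With the median over a gene's probes, Gstm4 in KO was at -0.30, Gstm1 in WT at -0.98, and Gstm3 at -2.62 in WT and -2.91 in KO. All 3 Gstm2 probes were at least 2-fold lower in both genotypes, from -1.05 to -1.63 in WT and from -2.03 to -2.49 in KO.

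**Figure D3:**
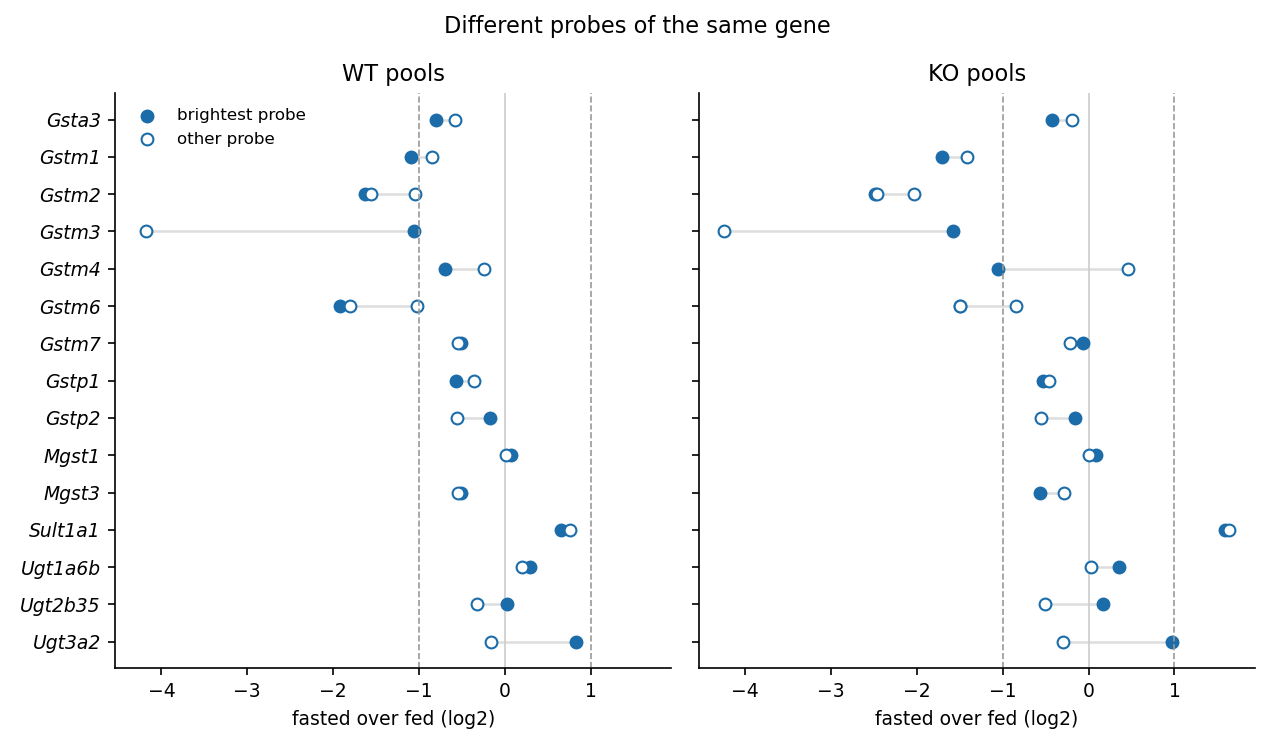
Fasted over fed difference (log2, horizontal axis) of every measured probe for the 15 members with more than 1, in the WT pools (left) and KO pools (right). Filled points are the brightest probe, used elsewhere in the text, and open points the others. The Gstm3 probes lie at -1.06 and -4.18 in WT, whereas the Sult1a1 probes lie at 0.65 and 0.75.

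The pi class genes Gstp1, Gstp2 and Gstp3 were below 0 for fasting without reaching 2-fold, with a median of -0.57 in WT and -0.53 in KO. Gstp3 came nearest and read 8.47 in the fed WT pool, 8.61 in the fed KO pool, 7.54 in the fasted WT pool and 7.65 in the fasted KO pool, 1.90-fold and 1.94-fold lower. With the signals as processed by the scanner software these became -1.26 and -1.32 (log2), past 2-fold. The 3 genes are neighbours on chromosome 19, and the Gstp1 and Gstp2 windows upstream of the start share 243 of 282 aligned bases (86.2%).

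Theta class GSTs, which act on small halogenated compounds and some sulfate esters, did not move as a group. Gstt2 read 10.51 in the fed WT pool, 10.28 in the fed KO pool, 12.05 in the fasted WT pool and 12.27 in the fasted KO pool. Both fasted pools were above both fed pools, 2.90-fold in WT and 3.97-fold in KO, and Gstt2 remained at least 2-fold higher under all 8 alternatives in either genotype. Gstt3 read 10.76 in the fed WT pool, 10.54 in the fed KO pool, 10.70 in the fasted WT pool and 11.61 in the fasted KO pool. Only the fasted KO pool stood apart: fasting made a 1.05-fold difference in WT and a 2.11-fold higher signal in KO. Centred on the median of all gene spots, the KO value was 0.96 (log2). Gstt1 was lower after fasting by 0.68 in WT and 0.50 in KO (log2), and Gstt4 was not above background. The run of neighbours on chromosome 10 goes Gstt3, Gstt1, Gstt4 and Gstt2, so that Gstt1, which was lower, lies between Gstt3 and Gstt2.

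The other GST genes were within 1.5-fold for fasting in both genotypes: Gstk1, Gsto1, Gstz1, Mgst1 and Mgst3. Gsto1, an omega class enzyme with thiol transferase activity, read 12.72 in the fed WT pool, 12.37 in the fed KO pool, 13.22 in the fasted WT pool and 12.36 in the fasted KO pool. The fasted WT pool was the highest, and KO was 1.82-fold below WT after fasting. Mgst1, a membrane-bound glutathione transferase and peroxidase, ranged only from 16.22 to 16.45 over the 4 pools.

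UGT genes as a group showed little difference with fasting, with a median of 0.04 (log2) in WT and -0.13 in KO over 13 measured genes. Ugt2b enzymes conjugate steroids and many drugs. All 7 measured Ugt2b genes were within 1.5-fold in WT, from -0.45 for Ugt2b1 to 0.13 for Ugt2b38, and 6 of 7 were in KO. Ugt2b1 was the exception and read 11.68 in the fed WT pool, 12.10 in the fed KO pool, 11.24 in the fasted WT pool and 11.20 in the fasted KO pool. The fed KO pool was the highest, so that its fasting difference was 1.36-fold in WT and 1.86-fold in KO, past 2-fold (-1.05) when centred on the median of all gene spots. Ugt2a3 read 12.29, 12.08, 12.33 and 11.67 in the fed WT, fed KO, fasted WT and fasted KO pools.

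Of the 2 Ugt3a genes, Ugt3a1 was 2-fold higher after fasting in KO, and neither was in WT. Ugt3a enzymes transfer sugars other than glucuronic acid, such as N-acetylglucosamine. Ugt3a1 read 10.40 in the fed WT pool, 9.92 in the fed KO pool, 11.24 in the fasted WT pool and 11.23 in the fasted KO pool. The fasted pools were level, and the lower fed KO pool made the difference 2.49-fold in KO against 1.79-fold in WT. Ugt3a2 read 12.01 in the fed WT pool, 12.01 in the fed KO pool, 12.83 in the fasted WT pool and 12.98 in the fasted KO pool, a difference of 1.76-fold and 1.96-fold. A second Ugt3a2 probe went the other way, at -0.16 in WT and -0.30 in KO. The pair are neighbours on chromosome 15 and stayed above 0 under all 8 alternatives in both genotypes.

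Of the Ugt1a genes, which conjugate bilirubin, phenols and many drugs, 3 were measured. Ugt1a10 read 8.04 in the fed WT pool, 8.93 in the fed KO pool, 9.45 in the fasted WT pool and 8.49 in the fasted KO pool. In WT the fasted pool was 2.66-fold above the fed one, whereas in KO it was 1.35-fold below. A second probe named Ugt1a10 was not above background in any pool and could not be compared. Ugt1a6b and Ugt1a6a, phenol-conjugating forms from the same locus on chromosome 1, stayed within 1.5-fold in both fasting comparisons.

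Among SULT genes, Sult1a1 and Sult1e1 were past 2-fold with fasting in KO and none was in WT. Sult1a1, the main phenol sulfotransferase, read 13.32 in the fed WT pool, 12.49 in the fed KO pool, 13.97 in the fasted WT pool and 14.08 in the fasted KO pool. The fed KO pool was lowest and the fasted pools were nearly level, which gave a fasting difference of 3.01-fold in KO and 1.57-fold in WT. A second Sult1a1 probe gave 3.11-fold and 1.68-fold. Without normalization between the arrays both genotypes were past 2-fold: Sult1a1 was at 1.28 (log2) in WT and 2.22 in KO, in place of 0.65 and 1.59, and Ugt3a1 at 1.44 and 1.91, in place of 0.84 and 1.31. Sult1e1, the oestrogen sulfotransferase, which inactivates oestrogens, read 6.74 in the fed WT pool, 7.02 in the fed KO pool, 6.53 in the fasted WT pool and 8.95 in the fasted KO pool. The other 3 pools lay between 6.53 and 7.02, not far above the dimmest signal counted as above background, 6.04 to 6.11, while the fasted KO pool was well above. Fasting made a 3.83-fold higher signal in KO and a 1.15-fold lower one in WT. Sult1b1, Sult1c2, Sult1d1, Sult2a7, Sult2a8 and Sult5a1 were below 2-fold in both genotypes, from -0.44 for Sult1c2 in WT to 0.56 for Sult2a7 in KO.

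Few genotype differences reached 2-fold, in these genes as on the whole array. In the fed state none of 43 measured members differed 2-fold between KO and WT, beside 0.554% of 11377 measured genes (0.158% higher and 0.396% lower), and 39 were within 1.5-fold. A count of 0 among 43 is near that background and is no result about the members. The member median was -0.03 (log2), against 0.01 over all measured genes. Values ran from -0.82 for Sult1a1 to 0.90 for Ugt1a10. After fasting 1 of 45 members, Sult1e1, was 2-fold higher in KO and none was lower, beside 0.791% of 12262 genes (0.359% higher and 0.432% lower), so the share of members past 2-fold (2.22%) rests on that gene. The median was 0.04. Of the 43 members measured in all pools, 23 had the same sign of the genotype difference in both feeding states. The share over all measured genes was not counted, so this is no result about the members.

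These counts depended on the centring of the arrays. Centred on the median of all gene spots, the median of all measured genes rose by 0.79 (log2) in the fed state and 0.59 in the fasted state, and 20 members were then past 2-fold in the fed state and 13 in the fasted state, all of them higher in KO. With the signals as processed by the scanner software there was 1 member in the fed state (Ugt1a10, 1.11), and 3 in the fasted state, with Gsta1 at -1.02 and Ugt1a10 at -1.07 beside Sult1e1.

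**Figure D4:**
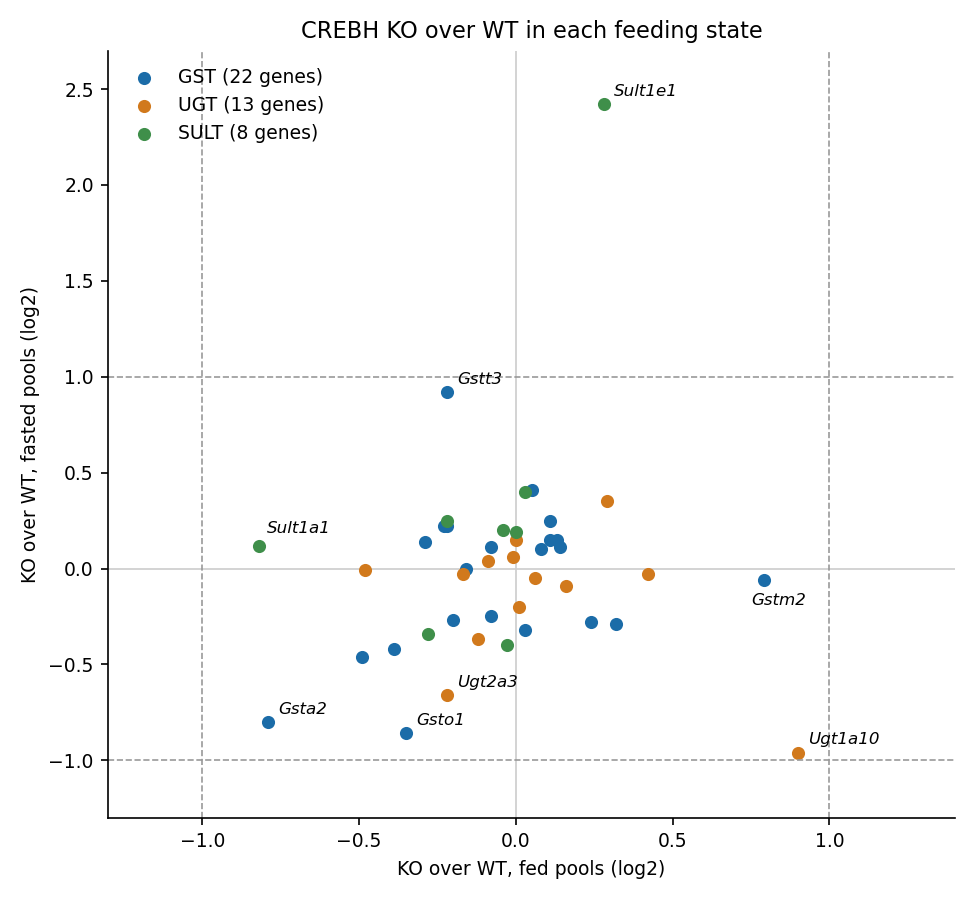
KO over WT (log2) in the fed pools (horizontal axis) and the fasted pools (vertical axis) for the 43 members measured in all 4 pools, coloured by superfamily. Dashed lines mark 2-fold. Sult1e1 lies alone above the upper line at 2.42, and Ugt1a10 lies at 0.90 fed and -0.96 fasted.

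Sult1e1 was 5.35-fold higher in KO than in WT after fasting and 1.21-fold higher in the fed state. The error the scanner software attached to these log ratios was 0.42 fasted and 0.27 fed (log2), which covers the spot and not the mice. With its own processed signals the fasted difference was 3.85, and with a background offset of 16 it was 3.01, in place of 2.42. The processed signals also gave 2.64 for fasting in KO and 3.04 for the fasted minus fed genotype difference, in place of 1.94 and 2.14. The fasted genotype difference was at least 2-fold under all 8 alternatives. Sult1e1 ends a run of neighbouring genes on chromosome 5 that starts with Ugt2b34 and holds Ugt2 genes followed by Sult1b1, Sult1d1 and Sult1e1. In the fasted state Sult1b1 was at 0.25, Sult1d1 at 0.40 and Ugt2a3 at -0.66 (log2 KO over WT), so that the difference at Sult1e1 was not seen at its measured neighbours. The genes nearest to Sult1e1 in their centred log2 signal over the 4 pools, by Euclidean distance among 11247 genes, were Cxcl1 (0.60), Miox (0.68), Pcp4l1 (0.73), Scyl2 (0.74) and Aldh1a1 (0.77).

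Among GST genes no genotype difference reached 2-fold. Gsta2 was lower in KO in both states, by 1.73-fold fed and 1.74-fold fasted. Gsta1 was lower by 1.41-fold and 1.37-fold, and Gsta4 by 1.31-fold and 1.34-fold. Gsta3, on another chromosome, was at 0.05 fed and 0.41 fasted (log2). The alpha class median was -0.44 in both states, but 0.45 fed and 0.00 fasted when centred on the median of all gene spots, where the median of all genes stood at 0.78 and 0.57. In the fed state Gstm2 was 1.73-fold higher in KO by its reported probe, and its other 2 probes gave 1.53-fold and 1.63-fold. After fasting Gstt3 was 1.89-fold higher in KO, and 1.14 (log2) when with each array centred on the measured genes' median.

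The genotype difference itself was set against feeding state by subtracting the fed from the fasted log2 difference. This was at least 2-fold for 3 of 43 members: Sult1e1 at 2.14, Gstt3 at 1.14 and Ugt1a10 at -1.85, beside 1.37% of 11290 measured genes (0.771% higher and 0.602% lower). Sult1e1 and Gstt3 were relatively higher in KO after fasting and Ugt1a10 relatively lower. Gstt3 fell to 0.92 when centred on the median of all gene spots, a setting under which 1 member was above and 2 below 2-fold, Gstm2 being the added one at -1.25. For Ugt1a10 the difference ran from KO 1.86-fold above WT when fed to KO 1.94-fold below WT when fasted. The nearest members below 2-fold were Sult1a1 at 0.94 and Gstm2 at -0.86, followed at some distance by Gstm1 at -0.61. Sult1a1 was 1.77-fold lower in KO when fed and 1.09-fold higher when fasted, and its second probe gave 1.74-fold and 1.06-fold. All 5 measured Sult1 genes were above 0 in this comparison, with a median of 0.47, beside 51.2% of all measured genes below 0. This held under all 8 alternatives. The 3 measured Gstt genes were also all above 0, with a median of 0.45, and stayed so under 6 of 8 alternatives. The median was 0.02 for GST and -0.12 for UGT genes.

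The measured Sult1 genes and the Kupffer cell markers were all above 0 in the fasted minus fed comparison. With fasting in KO, 4 of 5 Sult1 genes (median 0.40) and 9 of 9 Kupffer cell markers (median 0.53) were above 0. With fasting in WT, 2 of 5 (median -0.16) and 5 of 9 (median 0.10) were. For KO over WT after fasting, 5 of 5 (median 0.25) and 5 of 9 (median 0.15) were. For KO over WT when fed, 2 Sult1 genes were above 0 and 3 below, with a median of -0.00. The Kupffer cell markers were lowest in the fed KO pool by their sum. Of these markers 9 of 9 were below 0 for KO over WT when fed and 9 of 9 above 0 in the fasted minus fed comparison. Endothelial markers did the same by smaller amounts, with 8 of 8 below 0 for KO over WT when fed (median -0.10) and 7 of 8 above 0 in the fasted minus fed comparison (median 0.21). The part of both lists in the Sult1 values was not tested. Hepatocyte markers were all within 1.5-fold in that comparison.

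Genes that supply or follow conjugation were read from lists drawn up for these pathways, and each count is to be set against the shares of all measured genes past 2-fold: 4.28% with fasting in WT, 4.68% with fasting in KO, 0.554% by genotype when fed and 0.791% when fasted. For glutathione supply and turnover, 16 of 21 genes were measured in the fasting comparisons, and the same 3 were at least 2-fold higher in each genotype. These were Mat1a (1.68 in WT and 1.87 in KO, log2), which makes S-adenosylmethionine, Ahcy (1.62 and 1.18), which hydrolyses S-adenosylhomocysteine, and Oplah (1.24 and 1.59), the 5-oxoprolinase. None was 2-fold lower. Gclc, the catalytic subunit of the rate-limiting enzyme of glutathione synthesis, was at -0.70 and -0.86. Chac1, which degrades glutathione, was the only gene of the list to differ 2-fold by genotype, at -1.06 after fasting.

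For UDP-glucuronic acid supply, 2 of 11 measured genes were lower with fasting in WT and 1 in KO. Slc35d1, a carrier of UDP-glucuronic acid into the endoplasmic reticulum, was lower in both, at -1.21 in WT and -1.40 in KO (log2). Rgn, a lactonase of the ascorbate pathway, was at -1.06 and -0.86. Ugdh, the enzyme that makes UDP-glucuronic acid, was at -0.66 and -0.32. No gene of this list differed 2-fold between genotypes in either state.

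For sulfate and PAPS supply, 1 of 13 measured genes passed 2-fold with fasting: Ethe1, a sulfur dioxygenase, at -1.23 in WT and -0.69 in KO (log2). Papss2, a synthase of the sulfate donor PAPS, was at -0.76 and -0.54. None passed it between genotypes.

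Other conjugating enzymes included 3 of 17 past 2-fold with fasting in WT and 5 of 17 in KO. Inmt, a methyltransferase of indolamines, was lower in both, at -1.35 and -1.19 (log2), and Acsm3, a medium-chain acyl-CoA synthetase, was higher in both, at 1.10 in WT and just past 2-fold in KO. Tpmt, the thiopurine methyltransferase, was at 1.19 and 0.49, As3mt, the arsenic methyltransferase, at 0.74 and 1.04, and Acsm1 at -0.67 and -1.16.

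Of 19 sensors and transcription factors that act on conjugation genes, only Nr1i3 was 2-fold apart with fasting. Ppara, which encodes PPAR-alpha, fell just short of 2-fold higher in WT, against 0.20 (log2) in KO, and its genotype difference after fasting was -0.74. Nr1i3 encodes CAR and read 11.03 in the fed WT pool, 10.66 in the fed KO pool, 12.58 in the fasted WT pool and 12.70 in the fasted KO pool, 2.93-fold higher in WT and 4.09-fold higher in KO. Cyp2b10, a target of CAR, was at 0.28 and 0.98 (log2), whereas Cyp2c55, also among the listed targets of these sensors, was at -1.87 and -2.69. Nfe2l2, which encodes NRF2, was at -0.00 and 0.20, and its target Nqo1 at 0.18 and 0.53. Nr1i2, which encodes PXR, was at 0.61 and 0.00, and the PXR target Cyp3a11 was at -0.21 in WT and -1.38 in KO. None of the 19 differed 2-fold by genotype in either state. Of 17 measured target genes of these sensors, 8 were past 2-fold in each fasting comparison, beside 4.28% of all measured genes in WT and 4.68% in KO. The PPAR-alpha targets Cyp4a14, Cyp4a10, Acot1 (3.90 in WT and 3.70 in KO), Ehhadh and Pdk4 were higher in both genotypes and Por in WT, while Cyp2c55 (-1.87 and -2.69) was lower in both, Cyp1a2 in WT, and Cyp3a11 and Ces2a in KO. By genotype, where 0.554% of all measured genes were past 2-fold when fed and 0.791% when fasted, Cyp4a14 (-3.77) and Cyp4a10 (-1.39) were lower in KO when fed, and after fasting Pdk4 (1.56) and Cyp4a14 (1.36) were higher and Cyp3a11 (-1.05) lower.

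Among 8 exporters, Abcc3, which carries glucuronides back to blood, was at 0.80 in WT and 1.24 in KO with fasting (log2). Abcc2, which carries conjugates into bile, was at 0.15 and -0.18. Abcb11, the bile salt export pump, was lower in both, at -1.26 and -1.28. Abcb1b was 2.24-fold higher in KO than in WT in the fed state, the only exporter past 2-fold by genotype, and was at -1.40 with fasting in KO.

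The upstream windows, available for 51 of the 59 members, were searched on both strands for 3 motifs. Members were counted by gene and the background by window, so the 2 shares differ in unit. The core of the antioxidant response element, TGACNNNGC, was present in 4 members (Gsta3, Gstm5, Gstm7 and Mgst1), beside 12.4% of 32851 windows. None of these 4 was past 2-fold in any comparison. The cyclic AMP response element, TGACGTCA, was present in no member, beside 1.79% of windows. The nuclear receptor half-site AGGTCA was present in 10 of the 51 members, beside 16.3% of windows, which is near that share and is no result about the members. Among the 10 were Gstm1, Sult1b1, Sult1e1 and 5 of 7 measured Ugt2b genes. The Ugt2b hits are not separate, since the Ugt2b37 window shares 95.5% of aligned bases with that of Ugt2b38 and 89.5% with that of Ugt2b5. In Sult1e1 the half-site lies on the strand opposite to the gene, so that it reads TGACCT in the window, 113 bases before the start, and is the stretch in capitals above. The windows of Gsta1, Gsta2 and Ugt1a10 held none of the 3, which says only that these letters are not in those windows.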

How the data were processed

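Liver total RNA from 4 pools was measured on 2 two-colour Agilent arrays, read by Agilent Feature Extraction 10.10.1.1 per the file headers. The deposited scanner files hold spot intensity, a log10 ratio, and the error of that ratio, a score in log10 units. The authors' deposited value table holds log2 ratios of KO over WT; it differed from the scanner ratios by at most 0.005 (log2) and served as an alternative.

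Median signals were background corrected with normexp (offset 50), loess normalized within arrays and Aquantile normalized between arrays (limma 3.58.1, R 4.3.3), leaving out outlier spots. Spots of a probe were averaged. The probe with the highest mean signal stood for its gene. A gene was measured where at least 50% of its spots were well above background in each channel compared. RefSeq accessions named 26762 of 55681 probes. The steps were tested on simulated arrays for the fed KO over WT difference only. No fasting difference was simulated, so the fasting comparisons were not tested in this way. There are no counts behind an array value, so the number of arrays limits the precision.

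Values in all pools are given for members at least 2-fold apart in any of 5 comparisons and for the 3 nearest to 2-fold on each side, and pathway genes are named where 2-fold apart, with up to 3 others per list; 1 gene of the list of other conjugating enzymes is not reported here. Alternatives changed background correction, centring, normalization between arrays, probe choice, the dim probe filter and the source of ratios. Members and lists were chosen with earlier results of these data known.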

Additional observations from a re-analysis of the deposited data

Results flagged for a closer look

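For 3 members the genotype difference in the fasted pools was at least 2-fold away from that in the fed pools. Each rests on 1 pool per group, and the difference between the feeding states was not tested. Sult1e1 had a fasted minus fed log2 KO over WT difference of 2.14, from the single high value of the fasted KO pool. Gstt3 had 1.14, also from the fasted KO pool. Ugt1a10 had -1.85, with all 4 pools apart from each other, and its second probe was not above background.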

How the results depend on the processing

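No call of a named member reversed its direction under any alternative. In the fed state, 0 members past 2-fold became 1 with the scanner software's processed signals, with centring on the measured genes, with an offset of 16 and in the authors' deposited table, and 20 with centring on all gene spots. In the fasted state, 1 member became 3 with the processed signals and in the authors' table, 2 with centring on the measured genes, with an offset of 16 and without background correction, and 13 with centring on all gene spots. The cause was not tested, except that centring on all gene spots moved the median gene by 0.79 and 0.59 (log2). Counts in the fasting comparisons, higher plus lower, stayed within 1.5 times: 6 to 9 in WT and 9 to 14 in KO. The split by direction was less stable than these totals. Without normalization between the arrays it was 6 higher and 3 lower in each genotype. As reported it was 2 higher and 6 lower in WT, and 5 higher and 7 lower in KO. Under centring on all gene spots, the KO fasting split was 4 higher and 9 lower. Signal over background limits 16 members that were not measured in every pool. No paired analysis was possible because each group is 1 pool.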
